A study of Homo sapiens with 26 samples.

Results

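The genes of intermediate filaments and of the nuclear lamina were followed through 26 ribosome footprint libraries of 3 human cell lines. The members were taken by symbol: VIM, NES, INA, NEFL, NEFM, KRT8, KRT18, LMNA, LMNB1 and LMNB2, which are 10 of 19447 gene symbols counted. All 10 are listed for every library, at 0 in some. A footprint is the piece of mRNA that a ribosome shields from RNase I, so a count on a coding sequence reflects how much mRNA there is and how many ribosomes sit on it, and these cannot be told apart here. The lines were HEK293T, a human embryonic kidney line that carries SV40 large T antigen, and HEK293FT, a related fast-growing line. The other line was K562, a suspension line from a chronic myeloid leukaemia. Each library comes from a whole culture of 1 line, so fewer cells that use a gene and less of its RNA per cell cannot be told apart.

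HEK293T gave 8 libraries of fragments labelled 15 to 35 nt, with 2 each that were undepleted or depleted of ribosomal RNA with Ribo-Zero Gold, RiboCop or NEBNext. HEK293FT gave 2 libraries of the same fragment range, 1 undepleted and 1 depleted with custom oligos. K562 gave 12 libraries of 20 to 34 nt in a comparison of kits. These comprised 2 undepleted, 2 FastSelect, 2 riboPools, 2 riboPools without heat, and 4 Ribo-Zero Plus libraries, made plain, with oligos, with formaldehyde or with both. A further 4 K562 libraries compared fragment sizes: NEBNext and undepleted, each at 20 to 34 and 20 to 60 nt. Both of the undepleted ones among these also carry a label naming NEBNext, and were grouped by title. All lysates held cycloheximide. HEK and K562 cells were grown in different media, and each line was profiled in experiments of its own. Cell line, medium, experiment and size selection therefore cannot be told apart where K562 is compared with a HEK line, nor cell line and experiment where the HEK lines are compared.

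Intermediate filament proteins share a central coiled-coil rod and assemble into ropes that give cells mechanical strength. Which of them a cell makes depends strongly on its lineage. Keratins are obligate pairs of a type II and a type I protein, and KRT8 with KRT18 form the pair of simple epithelia. Vimentin, encoded by VIM, is the filament protein of mesenchymal and many cultured cells, nestin (NES) that of progenitors, and the neurofilament proteins NEFL and NEFM with alpha-internexin (INA) those of neurons. The lamins line the inner face of the nuclear envelope. LMNB1 and LMNB2 encode the B-type lamins that most cells make, and LMNA encodes lamins A and C, which tend to be low in undifferentiated cells and rise in stiffer, differentiated ones.

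The feature that joins cytoplasmic filament proteins and lamins in 1 family can be read in their coding sequences. Near the end of the rod, all of the members shown carry codons for the pattern tyrosine, arginine, any residue, leucine, leucine, glutamate, which closes the coiled coil and is the most conserved stretch of the family. The sequences are 30 bases of coding sequence from GENCODE release 29 (GRCh38), and capitals mark the 6 codons of the pattern.
NES: gccacgTACAGGACCCTCCTGGAGgctgag
INA: gcagctTACAGGAAACTGCTGGAAggcgag
KRT18: gccaccTACCGCCGCCTGCTGGAAgatggc
LMNB1: agtgctTACAGGAAACTCTTAGAAggcgaa
LMNB2: aacgccTACCGGAAGCTCCTGGAGggcgag
Of the 18 capital bases, KRT18 and LMNB1 shared 10. Each member shown held the pattern once in its coding sequence.

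The lamins differ from the cytoplasmic members at the very end of the coding sequence. All 3 lamin coding sequences end in a cysteine codon followed by 3 more codons, the signal to which a farnesyl lipid is attached. It is shown because lamins A and C differ here: lamin C is made from a shorter transcript without it, and every coding base of the counted prelamin A transcript of LMNA is also present in other coding transcripts of the gene. Counts on LMNA can therefore come from both lamins A and C, which were not told apart. Only on the tail that lamin C lacks can they not come from it. Values per kb divide by all 1992 coding bases of the counted transcript. For LMNA they are thus too low to the extent that lamin C is made. The capitals mark the cysteine codon and the 3 codons after it, before the stop codon.
LMNA: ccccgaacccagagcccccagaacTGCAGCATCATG
LMNB1: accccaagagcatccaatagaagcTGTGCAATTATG
LMNB2: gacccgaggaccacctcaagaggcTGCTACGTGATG

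In GRCh38, VIM lies at chr10:17228259-17237592 and INA at chr10:103277163-103290351, both on the plus strand. NES (chr1:156668763-156677397, minus strand) and LMNA (chr1:156114707-156140089, plus strand) lie on the same chromosome arm. KRT8 (chr12:52897187-52949842, minus strand) and KRT18 (chr12:52948964-52952901, plus strand) are neighbours that face opposite ways, and 375 coding bases of KRT18 overlap an exon annotated to KRT8. NEFL and NEFM are also neighbours, at chr8:24950955-24957110 and chr8:24913012-24919093. LMNB1 lies at chr5:126777148-126837020 and LMNB2 at chr19:2428166-2456996. All counts are of the coding exons. Some sequence is not unique: the annotation names 50 KRT8 and 68 KRT18 pseudogenes, and 905 coding bases of VIM and 924 of NEFM overlap antisense exons. How the authors assigned reads that match several places, and whether they used strand, is not given in the sources used here, so the keratin counts are uncertain to the extent that copies took or gave reads.

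Library totals ran from 46858 to 5795774 counts, with the shallow libraries mostly in HEK293T (120019 to 421521) and among the 4 K562 libraries of the size comparison. Levels are given as CPM, the counts on a gene per 1000000 counts of the library. A gene with no count is below the 3 counts that a count of 0 allows, which is 24.996 CPM in the first undepleted HEK293T library and 2.64 in the first undepleted K562 one. Intervals and these floors cover counting error only. The labels fit the markers of K562, 12 erythroid genes (globins, GATA1 and the like). These summed to 4281 to 14452 CPM in 16 K562 libraries against 0 to 7.31 in 10 HEK ones. All 12 were called higher in undepleted K562 than in undepleted HEK293T, where 18.5% of genes were. For 11 of the 12 that direction was fixed, since undepleted HEK293T had no count on them. The kidney development genes PAX2, PAX8, LHX1 and EYA1 were at or near 0 in the HEK lines. Among 8 neuronal genes, the HEK libraries held UCHL1, NCAM1 and TUBB3, while STMN2, L1CAM, CHGB, DCX and ELAVL4 were at or near 0. TUBB3 did not separate the lines, with undepleted means of 59.4 CPM in HEK293T, 57.7 in HEK293FT and 55.1 in K562. The 8 genes summed to 328 to 540.1 CPM in HEK293T and 364 to 399 in HEK293FT, against 21.7 to 70.1 in K562.

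The filament genes separated the lines into 2 patterns. In K562 the keratin pair KRT8 and KRT18 and the lamin gene LMNA were high, and the neuronal genes NEFL, NEFM and INA were at or near 0. In both HEK lines NEFL and NEFM were counted at about the level of a lamin, KRT8 was at or near 0, and LMNA was low beside the B-type lamins. VIM was high in all 3 lines. In undepleted libraries, edgeR's quasi-likelihood test called 8 of 10 members between K562 and HEK293T at an adjusted p under 0.05, 4 higher and 4 lower, where 35.4% of 9644 genes were called (18.5% higher and 16.9% lower). Between K562 and HEK293FT it called 10 of 10, 6 higher and 4 lower, against 52.1% of genes (26% higher and 26.2% lower). The lower calls of both comparisons include NEFL, NEFM and INA. These had no count in the undepleted K562 kit libraries, so the direction of their calls was fixed. KRT8, with 0 and 1 counts in undepleted HEK293T, could likewise only be called higher against that line. Scaling by total counts moved the median log2 difference of all genes (K562 minus HEK293T) from 0.02 to −0.24, and the share of calls that were higher from 52.2% to 36.4%, while the number of members called in each direction stayed at 4 and 4. Both comparisons use the same K562 libraries. Leaving out any 1 of the 5 libraries lowered the number of members called between K562 and HEK293T. The HEK293FT arm is 1 library, which is taken to vary like the others. Nothing states that replicates came from separate cultures, so these p-values measure only the spread between the libraries, which may be technical.

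**Figure D1:**
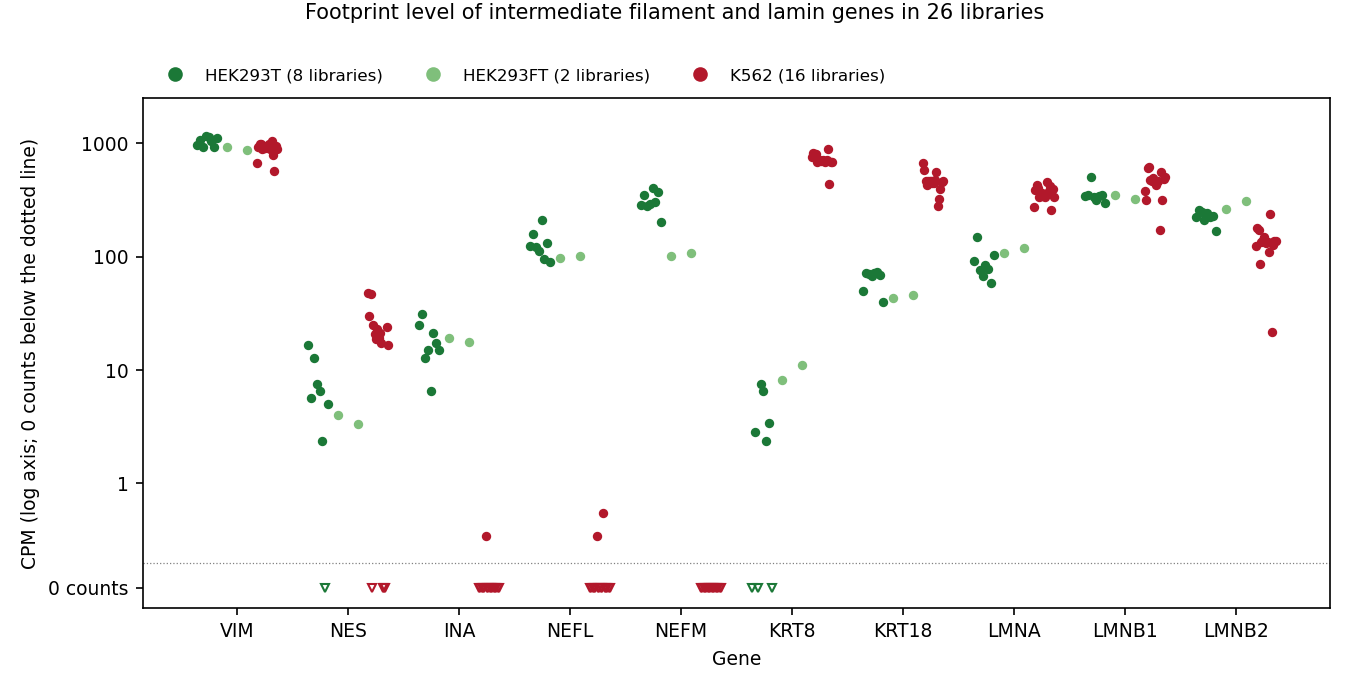
CPM (log axis) of each of the 10 genes in 26 libraries, each point 1 library coloured by cell line, with libraries of 0 counts drawn as open triangles below the dotted line. The K562 and HEK points do not overlap for KRT8, KRT18, LMNA, NEFL, NEFM and INA, and overlap for VIM, NES, LMNB1 and LMNB2.

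KRT8, the type II partner, showed the widest contrast among the genes that were higher in K562. The undepleted K562 libraries held 688 and 689 CPM, nearly the same level. The undepleted HEK293T libraries held 0 and 6.52 CPM, from 0 and 1 counts, and the undepleted HEK293FT library held 11.1 CPM from 10 counts. The groups did not overlap, and both HEK lines sat close to 0. The pooled ratio of K562 to HEK293T was 188 with a counting interval of 33.7 to 7441, wide because it rests on 1 HEK293T count. Over all libraries of each line, with 5 counts in HEK293T, it was 258 (110.4 to 794), and against HEK293FT 82.2 (63.4 to 109). The log2 difference was 7.73 ± 0.40 (SE) to HEK293T (edgeR adjusted p 5.49e-80) and 6.04 ± 0.20 to HEK293FT (adjusted p 4.51e-193). The former was 6.93 without the first HEK293T library and 12.13 without the second, which leaves no HEK293T count on KRT8. Its size is therefore poorly set. The call held, but with 0 and 1 counts in HEK293T it could only be higher.

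KRT18, the type I partner, was also higher in K562, and the HEK lines did hold KRT18 footprints. Undepleted K562 libraries had 454 and 465 CPM, those of HEK293T 49.99 and 71.7, and that of HEK293FT 45.5. The log2 difference was 3.14 ± 0.25 to HEK293T (8.79-fold, edgeR adjusted p 3.20e-35) and 3.44 ± 0.16 to HEK293FT (10.9-fold). Over all depletion methods, KRT18 ran from 283 to 664 CPM (median 462) in 16 K562 libraries and from 39.8 to 73.5 (median 68.2) in 10 HEK libraries, so every K562 library was above every HEK library. For KRT8 the same ranges were 436 to 888 (median 714) and 0 to 11.1 (median 3.14).

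The balance of the keratin pair therefore differed between lines. Per kb of coding sequence, the pooled count ratio of KRT8 to KRT18 was 1.34 in K562 (interval 1.31 to 1.37), 0.0368 in HEK293T (0.0117 to 0.0882) and 0.175 in HEK293FT (0.129 to 0.233). Single K562 libraries lay between 0.986 and 2.47, and between 1.02 and 1.69 without the 3 Ribo-Zero Plus libraries that had oligos or formaldehyde added. In K562 the partners were thus within a small factor of each other, whereas in the HEK lines nearly all footprints of the pair were on KRT18. The HEK293T and HEK293FT intervals did not overlap either, with counting error alone considered.

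**Figure D2:**
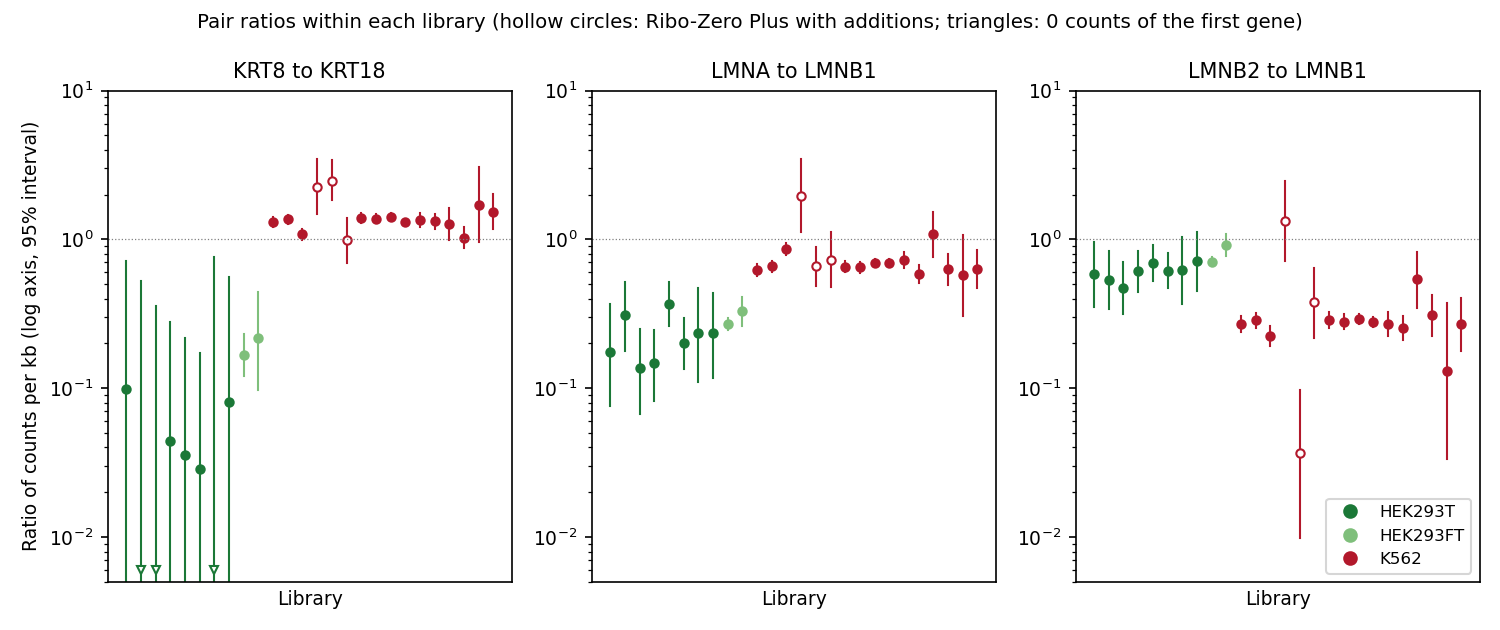
Ratio of counts per kb of coding sequence (log axis) for KRT8 to KRT18, LMNA to LMNB1 and LMNB2 to LMNB1 in each library, with 95% counting intervals, coloured by cell line. The KRT8 to KRT18 ratio lies between 0.986 and 2.47 in K562 and at or below 0.217 in the HEK libraries, and the open circles, Ribo-Zero Plus with additions, scatter most.

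NEFM, the medium neurofilament subunit, had no count in any of 16 K562 libraries, which hold 27561047 counts together. The undepleted HEK293T libraries had 283 and 404 CPM and the undepleted HEK293FT library 108. Against a floor of 3 counts over the K562 group, NEFM was at least 254-fold higher in undepleted HEK293T and at least 77.8-fold higher in undepleted HEK293FT than in undepleted K562. Over all libraries of each line these bounds were 2911 and 935. NEFM thus had the level of a lamin in HEK293T and was not detectable in K562 at this depth.

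NEFL, the light subunit on which neurofilaments are built, gave 2 counts in all of K562 and none in its undepleted kit libraries. It had 125 and 209 CPM in undepleted HEK293T and 102 in HEK293FT. Pooled over all libraries, the ratio of HEK293T to K562 was 1757 (481 to 14594). INA, which co-assembles with the neurofilament subunits, had 24.996 and 6.52 CPM in undepleted HEK293T, from 3 and 1 counts, and 17.8 in HEK293FT, from 16. It gave 1 count in all of K562. The bound for undepleted libraries was at least 10.6-fold for HEK293T and at least 12.8-fold for HEK293FT.

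All 3 were called lower in K562 in both comparisons (edgeR adjusted p for HEK293T 1.44e-80 for NEFM, 8.44e-40 for NEFL and 0.0038 for INA). None had a count in the undepleted K562 kit libraries, so each passed the low-count filter through the HEK libraries alone. A call could therefore only be lower. The INA call against HEK293T was lost on leaving out the first HEK293T library (adjusted p 0.156) or either K562 library (0.0565 and 0.0526). Against HEK293FT it held in each case. These HEK levels stand beside the neuronal marker list given above. In it UCHL1 and NCAM1 were high, TUBB3 was alike in all lines, and STMN2, L1CAM, CHGB, DCX and ELAVL4 were at or near 0.

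The HEK lines differed from each other in NEFM. It was 2.95-fold lower in HEK293FT than in HEK293T (log2 difference −1.56 ± 0.22, edgeR adjusted p 1.52e-10), 1 of 10 members called where 4.05% of genes were called (1.31% lower). Every HEK293T library, at 204 to 404 CPM, was above both HEK293FT libraries, at 101 and 108. For NEFL the difference was −0.61 ± 0.27 and did not pass (adjusted p 0.257). The ratio of NEFL to NEFM per kb was 0.679 (0.581 to 0.792) over HEK293T libraries, which ranged from 0.531 to 0.871, and 1.62 (1.45 to 1.81) over HEK293FT, whose libraries had 1.60 and 1.62. The order of the subunits was therefore opposite in the 2 lines when counted per length. The other 8 members did not pass, LMNB2 being nearest with 0.55 ± 0.20 (adjusted p 0.0985).

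NES, the progenitor filament gene, was low throughout. In CPM the undepleted values were 16.7 and 6.52 in HEK293T (2 and 1 counts), 3.33 in HEK293FT (3 counts) and 23.8 and 16.5 in K562 (27 and 17 counts). The HEK293T and K562 values overlapped, and the log2 difference of 1.13 ± 0.81 did not pass (edgeR adjusted p 0.292). Against HEK293FT it passed, at 2.65 ± 0.69 (adjusted p 4.06e-04). The difference to HEK293FT could be tested in only 3 of the 4 fits that left out a library, at 2.63 to 2.85. Pooling all libraries gave ratios of 3.85 (2.08 to 8.08) over HEK293T and 5.39 (3.64 to 8.32) over HEK293FT. Its coding sequence is the longest of the members, and per kb NES was at the bottom of the members that K562 libraries contained.

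VIM had the highest mean level of the members in each line and, in undepleted libraries, the smallest log2 difference between K562 and either HEK line. Undepleted libraries had 958 and 1140.3 CPM in HEK293T, 942 and 894 in K562 and 870.4 in HEK293FT. The K562 values lay between those of the HEK lines, below HEK293T and above HEK293FT. The log2 difference of K562 to HEK293T was 0.05 ± 0.10 (edgeR adjusted p 0.735), and it turned to −0.21 when libraries were scaled by their total counts. To HEK293FT it was 0.19 ± 0.07 (1.14-fold, adjusted p 0.0091), a call that was lost with total count scaling (adjusted p 0.367), with DESeq2 (0.113) and on leaving out the first (0.363) or second (0.127) K562 library.

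LMNA, the A-type lamin gene, was higher in K562 than in either HEK line. Its CPM was 399 and 338 in undepleted K562, 91.7 and 84.7 in HEK293T and 119.9 in HEK293FT. The log2 difference was 2.33 ± 0.23 to HEK293T (5.02-fold, edgeR adjusted p 1.86e-21) and 1.74 ± 0.13 to HEK293FT (3.33-fold, adjusted p 2.22e-36). Across depletion methods the 16 K562 libraries spanned 260.4 to 452 CPM and the 10 HEK libraries 58.5 to 148, without overlap.

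The B-type lamins differed in opposite directions. LMNB1 had 483 and 508 CPM in undepleted K562, 342 and 319 in HEK293T and 322 in HEK293FT, and was higher in K562 by 0.84 ± 0.15 on the log2 scale (1.79-fold, edgeR adjusted p 3.59e-07) and 0.73 ± 0.10 (1.66-fold, adjusted p 3.61e-13). LMNB2 had 138 and 137 CPM in K562, 225 and 241 in HEK293T and 311 in HEK293FT. It was lower in K562 by 2.09-fold against HEK293FT (log2 −1.06 ± 0.13, adjusted p 1.52e-15). Against HEK293T it was 1.43-fold lower (−0.51 ± 0.21, adjusted p 0.0461), a weak call that was lost with DESeq2 (0.0817), without the low-count filter (0.121) and on leaving out any of the 4 libraries compared (0.0851 to 0.325). The undepleted groups did not overlap for either gene.

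Within the lamina, the A-type share was thus larger in K562. Per kb of coding sequence the pooled ratio of LMNA to LMNB1 was 0.687 (0.669 to 0.705) in K562, 0.231 (0.193 to 0.274) in HEK293T and 0.278 (0.256 to 0.303) in HEK293FT. The ratio of LMNB2 to LMNB1 ran the other way, at 0.279, 0.611 and 0.735. LMNA took 31.9 to 45.5% of the lamin level per kb in single K562 libraries, 8.36 to 17.9% in HEK293T and 13.7 and 14.7% in HEK293FT. LMNB1 was the leading lamin in both HEK lines, with 48.5 to 62.2% in HEK293T. By median it led in K562 as well, with 51.4% (23.4 to 58.9%) against 34.2% for LMNA over 16 libraries.

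**Figure D3:**
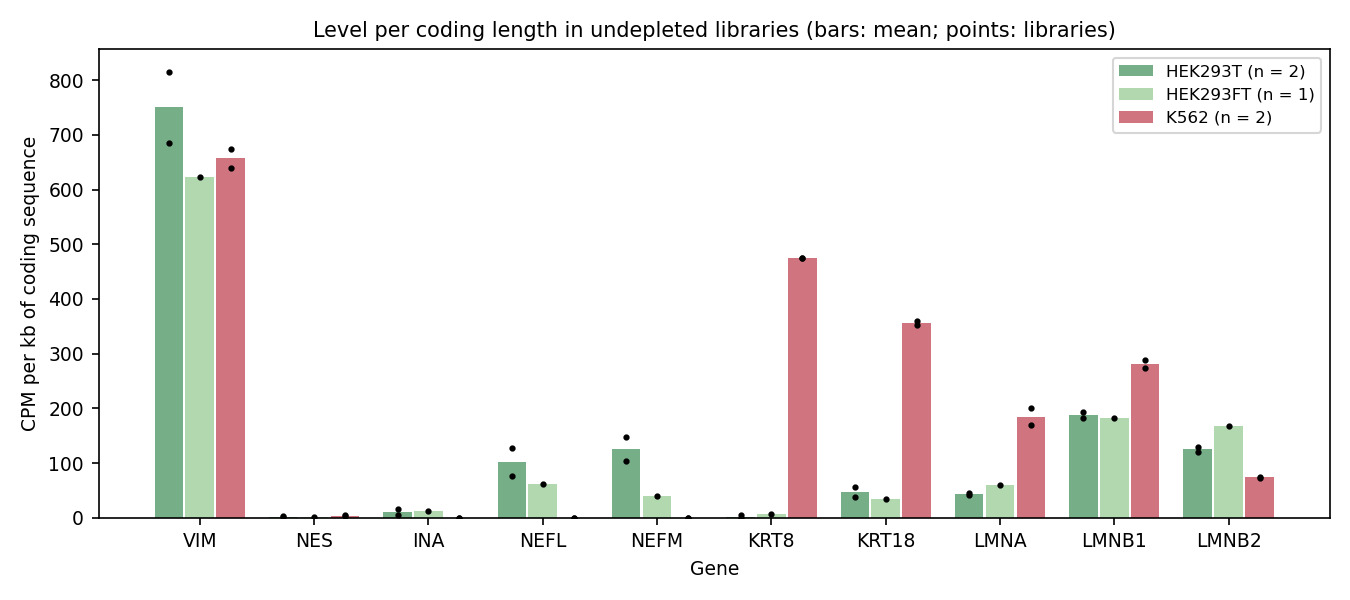
CPM per kb of coding sequence in undepleted libraries, bars showing the mean and points the libraries (2 HEK293T, 1 HEK293FT and 2 of the K562 kit comparison). VIM leads in each line, followed by KRT8 and KRT18 in K562 and by LMNB1 in the HEK lines.

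Read per kb of coding sequence, so that genes can be set beside each other, VIM led in all lines with means of 751 CPM per kb in undepleted HEK293T, 657 in K562 and 623 in HEK293FT. In K562 it was followed by KRT8 (475), KRT18 (356), LMNB1 (282), LMNA (185), LMNB2 (73.9) and NES (4.14), and no neighbours in that order overlapped between the 2 libraries. In HEK293T the order was LMNB1 (188), then LMNB2 (125), NEFM (125) and NEFL (102), whose libraries overlapped from each gene to the next, then KRT18 (47.2) and LMNA (44.3), which overlapped, INA (10.5), and NES (2.38) and KRT8 (2.25), which overlapped. In HEK293FT, with 1 library, LMNB1 (183) and LMNB2 (167) came next, followed by NEFL (62.7), LMNA (60.2), NEFM (39.2), KRT18 (35.3), INA (11.9), KRT8 (7.66) and NES (0.685).

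As shares of the cytoplasmic filament level per kb (the 7 members that are not lamins), VIM held 70.1 to 82.4% in the 8 HEK293T libraries and 79.8 and 81.5% in the 2 HEK293FT libraries. In K562 it held 31.4 to 51.3%, and the keratin pair took 48.7 to 68.0%. Keratins took 3.17 to 6.02% in HEK293T, where the neurofilament subunits and INA took 14.3 to 24.2%, and 13.5 and 14.6% in HEK293FT. In K562 that neuronal share was at most 0.0290%. The cytoplasmic sum had a median of 1514 CPM per kb in K562 and 983 in HEK293T. VIM itself had a mean of 639 ± 85.5 CPM per kb (SD, n = 16) in K562 and 748 ± 68.7 (SD, n = 8) in HEK293T.

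**Figure D4:**
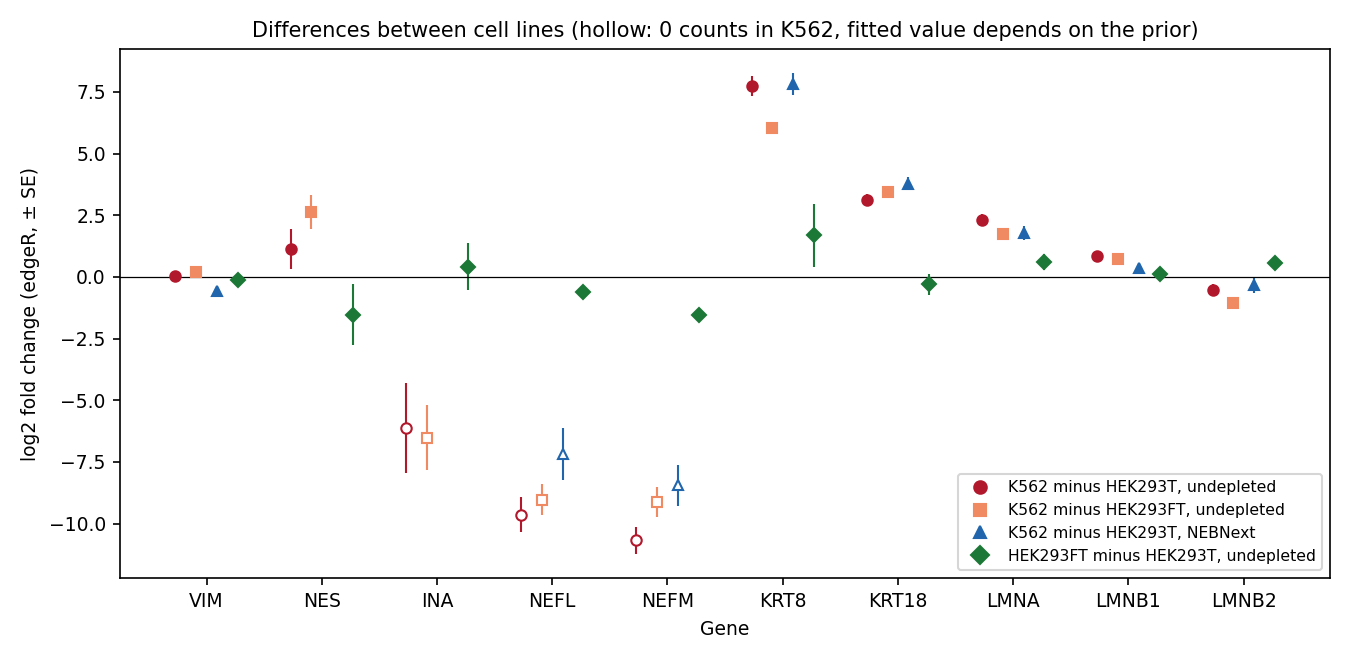
Log2 fold change (edgeR, ± SE) of each member in 4 comparisons of cell lines, marked by shape and colour, with open symbols where K562 had 0 counts, so that the fitted value depends on the prior count and is no bound. KRT8, KRT18 and LMNA lie above 0 and NEFL and NEFM below 0 in each comparison of K562 with a HEK line.

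The separate K562 libraries of the size comparison gave a second look at the same differences, against the same undepleted HEK293T libraries. Undepleted, they held 799 and 811 CPM of KRT8, 463 and 427 of KRT18, 431 and 405 of LMNA, 604 and 619 of LMNB1, 173 and 85.4 of LMNB2 and 978 and 982 of VIM, at 20 to 34 and 20 to 60 nt in that order. NEFL, NEFM and INA had no count. NES and INA were too low for this fit, which tested 8 members. KRT8 passed the low-count filter through K562 alone, and NEFL and NEFM through HEK293T alone. The direction of a call was therefore fixed for these genes. Of these 6 were called where 28.4% of 4736 genes were (14% higher and 14.4% lower): KRT8 (7.56 ± 0.49), KRT18 (2.95 ± 0.33), LMNA (2.23 ± 0.32) and LMNB1 (0.97 ± 0.22) were higher, and NEFL and NEFM lower. VIM (−0.15 ± 0.16) and LMNB2 (−0.59 ± 0.33) were not called (edgeR adjusted p 0.538 and 0.184).

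With NEBNext on both sides, in the same fit, KRT8, KRT18 and LMNA were again higher in K562. For KRT8 that direction was fixed, as said above. KRT8 had 764 and 816 CPM in K562 against 7.501 and 0 in HEK293T, KRT18 had 664 and 576 against 67.5 and 39.8, and LMNA had 272 and 386 against 67.5 and 104. The log2 differences were 7.81 ± 0.44, 3.79 ± 0.27 and 1.78 ± 0.29 (edgeR adjusted p 3.91e-24, 6.24e-19 and 5.75e-07). In all, 6 of 8 members were called where 41% of genes were, 3 higher (19.8% of genes) and 3 lower (21.3%). NEFL and NEFM, with no count in K562, were lower. VIM was called lower by 0.58 ± 0.15 (673 and 926 CPM against 1163 and 1119, adjusted p 0.0013), but not with DESeq2 (0.127) or without the low-count filter (0.134). LMNB1 (0.35 ± 0.20, adjusted p 0.163) and LMNB2 (−0.33 ± 0.30, adjusted p 0.383) did not pass.

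That NEBNext result leaned on the K562 library of 20 to 34 nt. Without it VIM was at 0.0086 (adjusted p 0.9998), LMNA was at 2.49, and 3 of 8 members were called, KRT8, KRT18 and LMNA. Whether the effect of NEBNext differed between K562 and HEK293T was tested as an interaction. NEFL and NEFM, with no K562 count, could not be tested in it, and 0 of the other 6 members in the fit passed (0.296% of genes were called). VIM and LMNB1 were under an unadjusted p of 0.05 there, and DESeq2 also called none.

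Across all 26 libraries, KRT8, KRT18 and LMNA were higher in every K562 than in every HEK library, and NEFL, NEFM and INA lower. For INA this says little in the shallow K562 libraries. Its count of 0 in the undepleted one of 20 to 60 nt has an upper 95% limit of 78.7 CPM, while the HEK libraries held 6.52 to 31.3 CPM. Among 6535 genes that averaged 20 CPM or more, a set that leaves out INA and NES, 14.1% did not overlap in this way, 6.79% with K562 higher and 7.35% with K562 lower. VIM ran from 575 to 1045 CPM (median 921) in K562 and from 870.4 to 1163 (median 1006) in the HEK lines. LMNB1 ran from 171 to 619 (median 463) and from 298 to 499 (median 342). LMNB2 ran from 21.7 to 239.8 (median 136) and from 169 to 311 (median 234). The lowest LMNB1 and both extremes of LMNB2 in K562 were in Ribo-Zero Plus libraries with additions, on few counts: LMNB1 had 20 counts in the one with formaldehyde, and LMNB2 had 4 in the one with oligos. The highest LMNB1 was in the undepleted library of 20 to 60 nt, from 29 counts. Without those 3 libraries, LMNB2 in K562 ran from 85.4 to 180.3 CPM and still overlapped the HEK range. The same 6 members then stood without overlap, where 21.6% of genes did (10.5% higher and 11.1% lower).

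Few members passed the test under any depletion kit. In HEK293T, 7 members could be tested (NES, INA and KRT8 were too low), and edgeR called 0 of 7 with Ribo-Zero Gold (0.068% of genes called), 0 with RiboCop (0%) and 0 with NEBNext (3.24%). DESeq2 called none of 7, 7 and 4 members for which it gave an adjusted p. With no adjustment, 0, 0 and 2 members had a p under 0.05, the latter being NEFL (−0.78 ± 0.33) and NEFM (−0.53 ± 0.23) with edgeR adjusted p of 0.213 and 0.225. NEFM had 292 and 204 CPM with NEBNext against 283 and 404 undepleted, so the groups overlapped, while NEFL had 113 and 89.5 against 125 and 209 and did not.

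In the K562 kit comparison, 7 members could be tested (NEFL, NEFM and INA were at or near 0). None of 7 was called with FastSelect (0.0198% of genes), riboPools (0.0794%) or riboPools without heat (0.258%) by edgeR. DESeq2 called none either, with an adjusted p for 7, 7 and 5 of them. With no adjustment, 0, 0 and 1 members had a p under 0.05, the last being LMNB1 without heat (−0.17 ± 0.05, adjusted p 0.181). KRT8, for example, lay between 688 and 718 CPM in all 8 of these kit and undepleted libraries, and VIM between 894 and 979.7.

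Plain Ribo-Zero Plus, with 1 library, called 2 of 7 members, both higher, where 20.6% of genes were called (8.95% higher). KRT18 was at 558 CPM against 454 and 465 undepleted (log2 0.30 ± 0.07, edgeR adjusted p 4.19e-04) and LMNA at 452 against 399 and 338 (0.30 ± 0.07, adjusted p 0.0014). Both were above both undepleted libraries. When the spread was estimated with all 12 libraries of that comparison, neither passed (adjusted p 0.214 and 0.0920), and LMNA did not pass without the second undepleted library (0.106). NEBNext in the K562 size comparison called 1 of the 6 members with a count there (NEFL and NEFM had none), which was lower, where 2.36% of genes were called (0.76% lower). It was LMNB1, with 381 and 315 CPM against 604 and 619 (−0.68 ± 0.18, adjusted p 0.0284). The groups did not overlap, but the call was lost with DESeq2 (0.291), without the low-count filter (0.376) and on leaving out any one library other than the second HEK293T NEBNext one (0.05001 to 0.514). KRT18 was at 0.57 ± 0.18 in the same comparison and did not pass (adjusted p 0.0791), but it did without the low-count filter (0.74, adjusted p 0.0323) and without the first HEK293T NEBNext library (0.62, adjusted p 0.0499).

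**Figure D5:**
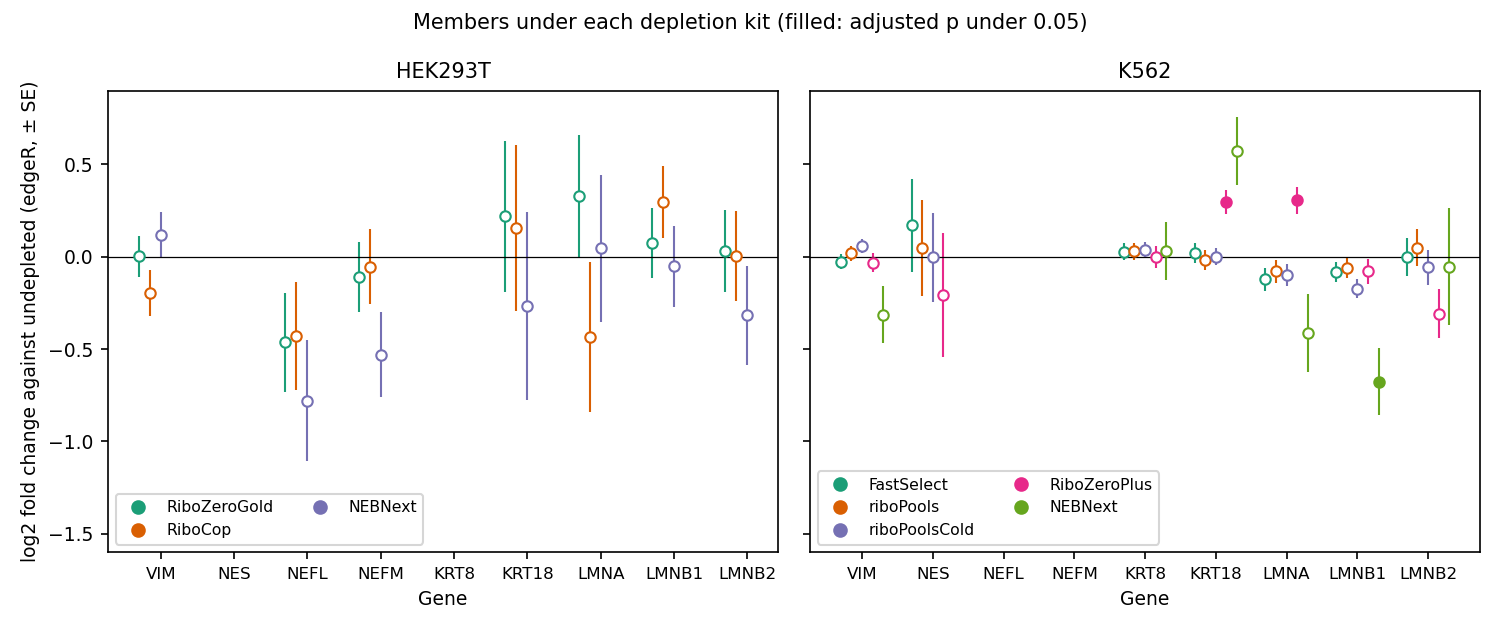
Log2 fold change against undepleted (edgeR, ± SE) of the members under each depletion kit in HEK293T and K562, filled where the adjusted p was under 0.05. Filled points are KRT18 and LMNA with Ribo-Zero Plus and LMNB1 with NEBNext, all in K562, and genes too low to test have no point.

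In HEK293FT each condition is 1 library, so no test was made. With custom oligos and undepleted in that order, VIM had 922 and 870.4 CPM, LMNB1 352 and 322, LMNB2 264 and 311, LMNA 108 and 119.9, NEFM 101 and 108, NEFL 97.1 and 102 and KRT18 43.3 and 45.5. KRT8 had 8.18 CPM from 47 counts with custom oligos, INA 19.3 from 111 and NES 4.002 from 23. The deeper library, with 5747772 counts, thus placed KRT8 in this line above 0 but far below its K562 range.

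Other filament genes were read from lists, for which the 35.4% of all genes called between undepleted K562 and HEK293T is the background. A gene with no count in one line passed the low-count filter through the other line alone. Of 53 other keratins, 2 were high enough to test, and both rose in K562 against HEK293T in the undepleted libraries: KRT19, the smallest type I keratin, at 192 and 169.6 CPM against 0 and 0 (at least 16.5-fold), and KRT10, a type I keratin of upper epidermis, at 217 and 239 against 0 and 6.52. The median log2 difference of these 2 was 8.05 (5.09 with KRT19 at its bound), against 0.02 over all genes tested. Both are type I keratins, as KRT18 is. The other 51 keratins had at most 6.91 CPM on average in undepleted K562. Of 9 further filament genes 4 could be tested, with NEFH and DES higher in K562 and IFFO1 and IFFO2 lower. Their median was 1.46 as fitted and −0.86 with the 3 genes that had no count in one line at their bounds, so its sign is not settled. NEFH, the heavy neurofilament subunit, had 39.6 and 51.4 CPM in undepleted K562 and no count in undepleted HEK libraries, at least 4.12-fold higher than in HEK293T (edgeR adjusted p 3.50e-06). K562 thus had footprints on the heavy subunit gene but none on NEFM and 2 counts on NEFL, whereas all HEK293T libraries together had 579 counts on NEFM, 233 on NEFL and 1 on NEFH.

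Genes that tie filaments to junctions were called in both directions. Of 14 linkers 13 were counted and 10 tested, with 3 higher in K562 (JUP, PKP3 and TCHP), 2 lower (DSP and PKP2) and 5 not called (median 0.52), so 5 of 10 beside that background. DSP, desmoplakin, which anchors keratin and desmin filaments at desmosomes, had 292 and 228 CPM in undepleted HEK293T, 91.0 in HEK293FT and 0.881 and 0.969 in K562 (1 count each). JUP, plakoglobin, its armadillo partner in the desmosome, went the other way, with 476 and 458 CPM in K562 against 41.7 and 97.7 in HEK293T (2.93 ± 0.23, edgeR adjusted p 1.13e-33). PKP3, a plakophilin, had 46.7 and 35.9 CPM in K562 and no count in undepleted HEK libraries. Undepleted K562 thus combined a high keratin pair with high JUP and almost no DSP, and undepleted HEK293T the opposite.

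Partners of the lamina were called in both directions. Of 15 lamina and nuclear envelope genes 13 were tested, with 4 higher in K562 (LBR, BANF1, LEMD2 and TOR1AIP1), 1 lower (SYNE1) and 8 not called (median 0.18). These 5 of 13 are near the background share, and the other comparisons went otherwise: 4 higher and 3 lower of 13 against HEK293FT, 1 higher and 4 lower of 11 with NEBNext, and 0 of 11 with the undepleted libraries of the size comparison. LBR, the lamin B receptor of the inner nuclear membrane, had 467 and 468 CPM in K562 against 400 and 391 in HEK293T (0.50 ± 0.15, edgeR adjusted p 0.0029). TOR1AIP1, which binds lamins and activates torsin, had 104 and 74.6 against 49.99 and 45.6 (1.17 ± 0.37, adjusted p 0.0068). BANF1, the barrier-to-autointegration factor, was called at 0.66 ± 0.25 (adjusted p 0.0254), with 171 and 168 CPM against 192 and 78.2, so the groups overlapped. Of 6 genes that process the lamin tail, all tested, 2 were higher and 4 not called (median 0.25), which is also near the background, and 0 of 4 were called with the undepleted libraries of the size comparison (median −0.03). FNTA, a farnesyltransferase subunit, had 74.0 and 67.8 CPM in K562 against 49.99 and 13.03 in HEK293T (adjusted p 0.0031), and NARF, a binder of prelamin A, 92.5 and 108 against 41.7 and 52.1 (adjusted p 0.0015).

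The genes whose level followed a member most closely were taken by Pearson's r of log2(CPM + 5) over the means of 18 groups, among 6535 genes. These are descriptions, and the groups share experiments and depth. For KRT8 they were LGALS1 (r 0.9951), RHOXF2B (0.99) and HBZ, embryonic zeta globin (0.99), all high in K562 and at or near 0 in the HEK lines. For VIM they were CDC25B (0.92), BCCIP (0.88) and ESF1 (0.86), and for LMNB1 SET (0.91), RHOG (0.90) and DYRK1A (0.88). Among the members, KRT18 had r of 0.96 and LMNA of 0.98 with KRT8, NEFL of 0.99 with NEFM, and LMNB2 of −0.56 with LMNB1. LMNA was therefore nearer in pattern to the keratins than to either B-type lamin by this measure. Many other genes followed these members more closely. Among the 6535 genes, KRT18 ranked 139 and LMNA 70 for KRT8, and NEFL ranked 35 for NEFM.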

How the data were processed

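Each of 4 deposited tables lists counts of reads on the coding sequence of 19478 transcripts, as whole numbers that the authors had not normalized. The deposited RPM values are the same counts per library total (largest difference 3.64e-12) and were not used further. CASAVA 1.8, STAR and GRCh38 are named in the submitters' processing notes, while the annotation, counting tool and handling of duplicates are not given in the sources used here. Of the transcripts, 97.3% matched a coding sequence of GENCODE 29, which gave lengths, positions and sequences.

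Counts were tested with edgeR 4.0.16 in R 4.3.3 (two-sided quasi-likelihood test, TMM, filterByExpr with a minimum count of 10, Benjamini-Hochberg over all genes of a fit, adjusted p under 0.05). Undepleted libraries of the 3 lines shared 1 fit of 5 libraries. The NEBNext comparison used 8 libraries with fragment size as a term. HEK293T kits and K562 kits had a fit each, the latter of 9 libraries without Ribo-Zero Plus with additions. Raw counts allow libraries of different tables in 1 fit, but line and experiment coincide. Alternatives were DESeq2 1.42.0, its size factors, total count scaling, no filter, leaving out each library and, chosen after seeing the data, only the 4 NEBNext libraries. The tests were tested on simulated data: of 100 genes given a 2-fold change, 81% were recovered for K562 against undepleted HEK293T (9208 genes tested). The changed genes were drawn from those averaging at least 100 CPM, and all genes were given 1 common spread. The figure therefore does not hold for low genes such as INA and NES.

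CPM divide by the library total, and per-length values divide by coding length. Bounds use 3 counts over the group, and 95% intervals are exact (Poisson for levels, Clopper-Pearson for ratios). The RiboCop pair differed by no more than sampling noise (chi-square p 0.103), but with different barcodes and totals both libraries were kept. The 10 members are named throughout. The 3 genes most like the leading member of each family, and of the lists at most 4 called genes with a mean of 20 CPM or more in the undepleted K562 and HEK293T libraries, are named, and LEMD2, SYNE1, DES, IFFO1, IFFO2, PKP2, TCHP and the marker genes were named outside that rule after their values were seen. Members and lists were chosen with earlier results of these data known.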

Additional observations from a re-analysis of the deposited data

How the results depend on the processing

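For the comparisons of lines, the calls that depended on a setting were those of LMNB2, INA, VIM and, with the libraries of the size comparison, NEFL and NEFM. The NES call against HEK293FT could not be checked in every fit that left out a library, since NES was not always tested. KRT8, KRT18 and LMNA kept their call and direction between K562 and either HEK line under every alternative run. Against HEK293T the direction for KRT8 was fixed, since that line had almost no count on it. Depth limits the HEK293T side, where 3 counts in a library are 7.12 to 24.996 CPM, so differences in NES, INA and KRT8 among HEK libraries were not detectable. With DESeq2 the numbers of genes called were 3000 for K562 against HEK293FT, 237 between the HEK lines, 680 for K562 against HEK293T with NEBNext, 484 with the undepleted libraries of the size comparison, 30 for NEBNext in K562 (0 members) and 1 for its interaction. For the kits they were 1 with Ribo-Zero Gold (also 1 without a filter), 58 with NEBNext in HEK293T, 1 with FastSelect, 2 with riboPools, 17 without heat and 491 with Ribo-Zero Plus. With the 20 to 34 nt undepleted library of the size comparison in place of the kit libraries, 1246 genes differed from HEK293T and 1481 from HEK293FT. With all 12 libraries of the kit comparison in the fit, 0 genes were called for FastSelect, 0 for riboPools, 0 without heat and 231 for Ribo-Zero Plus (0 members). The cause was not tested.

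Scaling by total counts gave VIM −0.21 for K562 against HEK293T and LMNB1 −0.034 between the HEK lines. It lowered the share of calls that were higher from 67.8% to 42.7% between the HEK lines, from 67.9% to an even split for NEBNext in K562 and from 57.1% to 40.0% for its interaction. DESeq2 size factors moved the share for riboPools from 87.5% to 70.0%.

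Leaving out 1 library at a time gave these lowest and highest values.
For genes called they were 2117 and 2853 for K562 against HEK293T, 3959 and 5071 against HEK293FT, 219 and 331 between the HEK lines, 533 and 2172 with NEBNext, 398 and 1410 with the undepleted libraries of the size comparison, 16 and 147 for NEBNext in K562 and 0 and 31 for its interaction. For the kits they were 1 and 4 with Ribo-Zero Gold, 0 and 1 with RiboCop, 56 and 150 with NEBNext in HEK293T, 1 and 3 with FastSelect, 2 and 11 with riboPools, 13 and 24 without heat, and 1271 and 2063 with Ribo-Zero Plus. The lowest counts came without the second undepleted HEK293T library (2117, 219), without the 20 to 34 nt NEBNext K562 library (533, 16) and without the undepleted one of that size (398, 16). Without the first or second undepleted HEK293T library the size comparison called 876 and 873 genes. Ribo-Zero Plus called 1271 without the first undepleted K562 library, and NEBNext in HEK293T called 56 without its second NEBNext library and 80 and 82 without the first and second undepleted ones. Members called were 3 and 6 with NEBNext between lines, 0 and 1 for NEBNext in K562, and 1 and 2 for Ribo-Zero Plus. The log2 differences that turned sign were VIM (−0.064 to 0.20 against HEK293T, −0.22 to 0.043 between HEK lines, −0.58 to 0.0086 with NEBNext and −0.52 to 0.033 in the size comparison), INA (−0.31 to 1.59) and KRT18 (−0.49 to 0.046) between HEK lines, and LMNB2 with NEBNext (−0.44 to 1.28). The KRT8 difference to HEK293T, called each time, ran from 6.93 to 12.13 undepleted, from 6.72 to 10.33 with NEBNext and from 6.88 to 10.22 in the size comparison. The cause was not tested.

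The labels give replicate numbers across groups, and samples with the same number deviated together weakly in HEK293T (correlations of 0.065 to 0.136 over 6 pairs of groups, 4 of them over 0.1) and not in the K562 kits (−0.046 to 0.020 over 6 pairs). Since not every correlation in HEK293T was over 0.1, the numbers were not taken to pair the samples. With the replicate block, 3 genes were called with Ribo-Zero Gold, 0 with RiboCop, 153 with NEBNext in HEK293T, 2 with FastSelect, 9 with riboPools and 27 without heat, with 0 members in each. Fitting the 4 NEBNext libraries alone, an alternative chosen after seeing the data, moved no call.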
